A study of Mus musculus with 8 samples.

Results

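*Cfap43* (ENSMUSG00000044948) was followed through cultured mouse hippocampal neurons given melanin-concentrating hormone (MCH), as 1 of the 45706 rows of the gene table and as the 8 transcripts, of 109617, whose reads add up to that row. The gene was chosen from these same data because its row was among the most significant of those lower after MCH, so its difference between the treatments is given as a description, with no test. Neurons were taken from C57/Bl6 wild type mice at embryonic day 18 and kept as cultures treated with 5-fluoro-2′-deoxyuridine to limit the growth of glia. Between 12 and 14 days in vitro they received 1 µM MCH or vehicle (H2O) for 4 h. Each of 2 cultures supplied 2 wells of either treatment, so 4 wells with vehicle and 4 with MCH were compared. Replicates are numbered 1 to 4 within a treatment, and neither the labels nor the study's methods give the culture of a replicate, so spread between wells is partly spread within a culture. A tag for Alzheimer's disease stands on all samples beside the wild-type genotype. Poly-A RNA was sequenced as stranded libraries, with 26083936 to 31844861 estimated counts per well on genes.

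CFAP43 is a protein of the axoneme, the microtubule core of motile cilia and flagella. Together with CFAP44 it builds the tether that holds the inner-arm I1 dynein, the motor that sets the waveform of the beat, and its loss is known to cause malformed sperm flagella and, in the brain, hydrocephalus, since ependymal cells carry motile cilia that move cerebrospinal fluid. Neurons instead carry a single non-motile primary cilium, which lacks the dynein arms and on which the MCH receptor MCHR1 sits. ITPRIP, also called DANGER, is the product of the gene upstream of *Cfap43* on the same strand, binds the inositol trisphosphate receptor of the endoplasmic reticulum and modulates the calcium release through it.

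The *Cfap43* row of the deposited table was for the most part not made of reads on *Cfap43* transcripts of GENCODE vM21. In that annotation *Cfap43* spans chr19:47736857-47919287 of GRCm38 on the minus strand, and 7 transcripts in the tables belong to it. Their reads added up to 34 to 59 per well, against 323 to 647 in the row. The remainder equalled, in each of the 8 wells and with a largest difference of 0 reads, the reads of ENSMUST00000095998. The next closest transcript, one of *Gpr3*, missed the remainder by up to 104 reads. In vM21 that transcript is *Itprip-201*, a transcript of *Itprip* (ENSMUSG00000117975, chr19:47894602-47919299, minus strand), and 0 rows of the gene table carried the *Itprip* identifier. *Itprip-201* is therefore described below beside the *Cfap43* transcripts, and "the row" means the value as deposited.

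The coding starts of the 3 transcripts that held reads in all 8 wells show where on the strand each message begins to be read. They are printed from their start codons (capitals) for 120 bases, from the vM21 transcripts on the minus strand of chromosome 19.
*Itprip-201*, start codon from position 47898174 in exon 2: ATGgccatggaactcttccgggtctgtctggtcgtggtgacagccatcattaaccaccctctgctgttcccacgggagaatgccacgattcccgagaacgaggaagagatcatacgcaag
Full-length *Cfap43*, start codon from position 47837327: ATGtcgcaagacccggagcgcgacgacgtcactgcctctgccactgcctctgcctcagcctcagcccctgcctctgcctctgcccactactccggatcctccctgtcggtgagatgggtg
3′ form of *Cfap43*, start codon from position 47761965: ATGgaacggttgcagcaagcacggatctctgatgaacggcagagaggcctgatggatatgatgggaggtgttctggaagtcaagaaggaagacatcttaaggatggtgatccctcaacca

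Full-length *Cfap43* (ENSMUST00000160247) has 38 exons and 5046 coding bases. The 3′ form (ENSMUST00000161832) has 15 exons and 1686 coding bases, and begins inside the gene; 96.6% of its 1910 stretches of 31 bases also occur in full-length *Cfap43*. *Itprip-201* has 2 exons, all of its 1665 coding bases lie in exon 2, and its 3′ end lies 57.2 kb upstream of the start of full-length *Cfap43*. Of its 3730 stretches of 31 bases, 0 occur in the full-length or the 3′ form of *Cfap43* and 135 (3.62%) occur in ENSMUST00000026048, a retained-intron transcript of *Cfap43* that begins in the first exon of *Itprip*. This joining transcript had 0 reads in all 8 wells. Another count, 52 (1.39%), is of stretches that also occur in transcripts of other genes, on either strand. The reads of *Itprip-201* were whole numbers in every well, which is how salmon reports reads that it does not divide between transcripts. Shared reads given whole to 1 transcript look the same, so this does not show that every read was unique to *Itprip-201*.

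**Figure D1:**
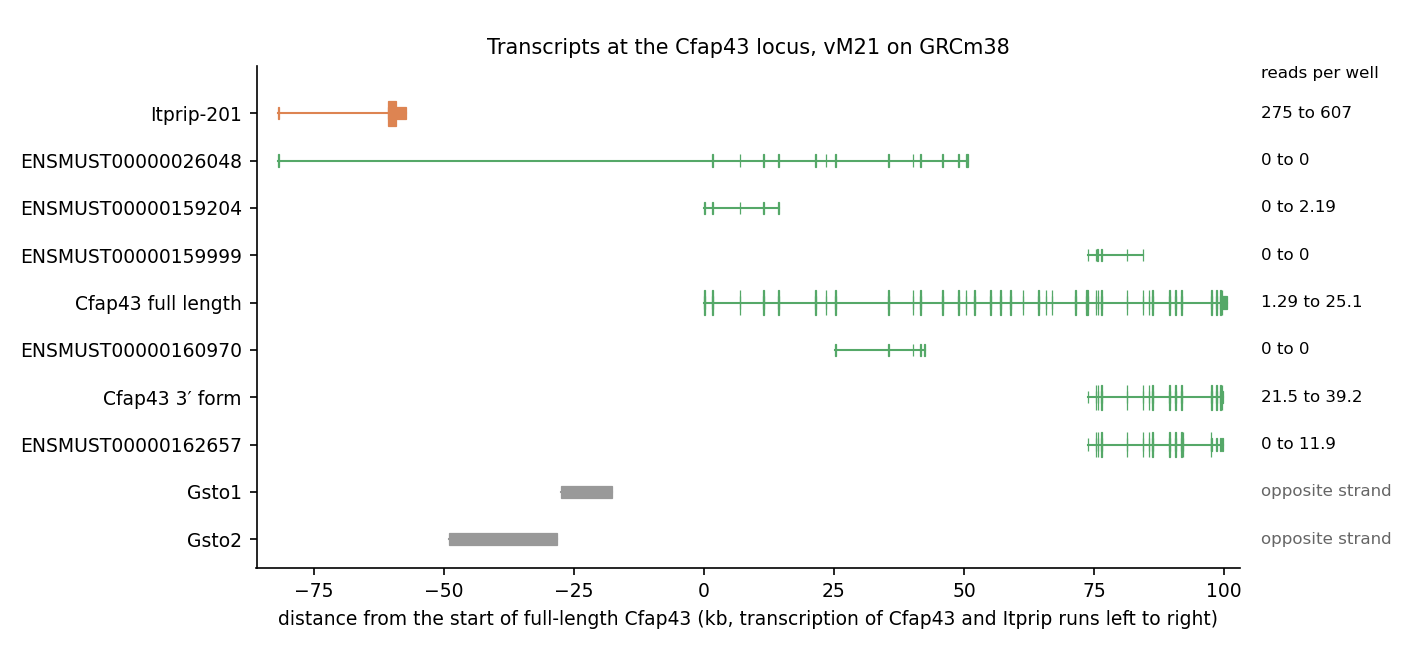
Transcripts at the *Cfap43* locus by distance in kb from the start of full-length *Cfap43*, with thick boxes for coding and thin boxes for other exonic bases (whole genes for *Gsto1* and *Gsto2*), and the lowest and highest estimated reads per well at the right. *Itprip-201* (orange, 275 to 607 reads) ends 57.2 kb before full-length *Cfap43* begins, and the transcript that joins both loci, ENSMUST00000026048, had 0 reads.

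In the row as deposited, the vehicle-treated wells held 20.9, 23.4, 20.6 and 21.2 CPM (counts per library size after edgeR's TMM scaling) in replicates 1 to 4, and the MCH-treated wells held 13.5, 12.1, 11.7 and 13.2 CPM. The highest well with MCH lay under the lowest with vehicle, as in 443 of the 14962 genes tested (2.96%), and the rule had picked the gene on this contrast. The means were 21.5 ± 1.27 CPM with vehicle and 12.6 ± 0.862 CPM with MCH (SD, n = 4 wells each), a log2 fold change of −0.77 (standard error 0.070). Within replicates 1 and 2 the mean log2 CPM differed by −0.79, and within replicates 3 and 4 by −0.75. In bulk RNA, fewer cells of a type and less RNA per cell cannot be told apart.

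Nearly all of this difference was on *Itprip-201*. It held 502, 607, 540 and 512 reads in vehicle replicates 1 to 4 and 390, 275, 287 and 327 reads in MCH replicates 1 to 4, with no overlap between the treatments. All MCH-treated wells lay below all vehicle-treated wells in 2.96% of the genes tested. Since *Itprip-201* held 85.1 to 93.8% of a row picked on this contrast, its own order follows largely from the choice. On the scale of the row *Itprip-201* held 19.9 ± 1.45 CPM with vehicle and 11.1 ± 1.17 CPM with MCH (SD, n = 4). With the row split in 2 and the fit repeated over all genes, a setting added after the data were seen, its log2 fold change was −0.85 (standard error 0.086), a level 44.4% lower with MCH. Of the difference of −8.90 CPM between the treatment means of the row, *Itprip-201* made up −8.83 CPM (99.2%).

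The *Cfap43* transcripts themselves held 1.47, 1.45, 1.55 and 2.19 CPM in vehicle replicates 1 to 4 and 1.09, 1.80, 1.73 and 1.76 CPM in MCH replicates 1 to 4. The wells of the treatments overlapped, and 3 of the 4 MCH-treated wells lay above 3 of the 4 vehicle-treated wells. The means were 1.67 ± 0.353 and 1.59 ± 0.338 CPM (SD, n = 4), a difference of −0.0727 CPM or 0.817% of that in the row. Their log2 fold change in the split table was −0.067 with a standard error of 0.233, so a small or moderate change was not detectable at 34 to 59 reads per well. Its sign rested on single wells, the value being 0.097 without vehicle replicate 4 and 0.084 without MCH replicate 1.

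**Figure D2:**
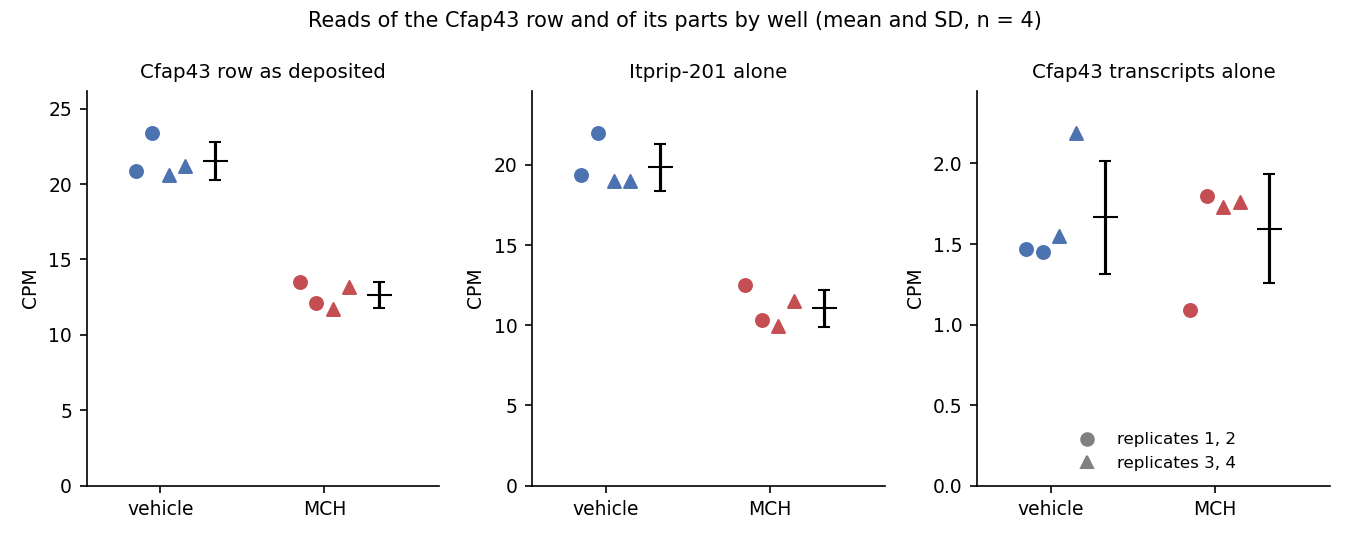
CPM of the *Cfap43* row (left), of *Itprip-201* (middle) and of the *Cfap43* transcripts (right) in each well, on axes that begin at 0 and differ in scale, with circles for replicates 1 and 2, triangles for replicates 3 and 4, and bars for mean and SD (n = 4 wells). The treatments part in the row and in *Itprip-201*, and overlap in the *Cfap43* transcripts, at 1.09 to 2.19 CPM.

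The share of the row on *Itprip-201* ranged from 85.1% (MCH replicate 2, exact 95% Clopper–Pearson interval of 80.8 to 88.8%) to 93.8% (vehicle replicate 2, 91.7 to 95.5%). It was 92.2 ± 1.78% with vehicle and 87.2 ± 3.25% with MCH (SD, n = 4). Such intervals cover counting error only, since reads without molecular identifiers are not independent molecules. A row with over 50% of its reads on transcripts that vM21 gives to other genes, or does not list, was seen in 146 of the 14962 genes tested. Among the 35 genes called differentially expressed, 31 lower (0.207%) and 4 higher after MCH (0.234% of 14962 in all), *Cfap43* was the 1 gene whose row differed from the sum of its vM21 transcripts by more than 1 read in any well (2.86% of the 35). Over all genes tested this held for 397 (2.65%), so the share among the called genes was close to that over all genes.

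Per base of transcript, *Itprip-201* was also the more abundant. Its TPM, a level that salmon scaled for length and depth, were 9.31, 10.4, 9.24 and 9.15 in vehicle replicates 1 to 4 and 6.07, 5.02, 4.84 and 5.62 in MCH replicates 1 to 4. The 7 *Cfap43* transcripts together reached 1.41 ± 0.324 TPM with vehicle and 1.39 ± 0.315 TPM with MCH (SD, n = 4). No well of *Cfap43*, at most 1.82 TPM, came near the lowest well of *Itprip-201*, at 4.84 TPM.

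Among the forms of *Cfap43*, the 3′ form held the most reads in most wells, and the full-length form was low or high by replicate number in both treatments. Scaled for length, the 3′ form was the main one in every well (0.765 to 1.46 TPM, against 0.0141 to 0.297 TPM for full length). The 3′ form held 36.7, 37.2, 21.5 and 39.2 estimated reads in vehicle replicates 1 to 4 and 32.7, 31.8, 24.9 and 36.2 in MCH replicates 1 to 4. The full-length form held 1.29, 2.79, 22.5 and 14.7 estimated reads in vehicle replicates 1 to 4 and 1.29, 4.31, 25.1 and 11.6 in MCH replicates 1 to 4. In both treatments replicates 1 and 2 were low and replicates 3 and 4 were high, with no overlap (1.29 to 4.31 reads against 11.6 to 25.1). Of all genes tested, 16.6% were higher in log2 CPM in each well of replicates 3 and 4 in this way.

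The full-length share of the *Cfap43* reads was 21.6 ± 21.8% with vehicle and 21.5 ± 20.8% with MCH (SD, n = 4), a difference of −0.05 percentage points. Over replicates 1 and 2 the share averaged 5.79 ± 2.67%, and over replicates 3 and 4 it averaged 37.4 ± 15.4% (SD, n = 4 wells each, both treatments). In single wells it ranged from 3.39% (vehicle replicate 1, exact 95% interval of 0.0666 to 13.8%) to 51.1% (vehicle replicate 3, 34.6 to 65.4%). Because most of the 3′ form is contained in the full-length form, salmon has to estimate this division, an error that the intervals leave out. The tables give the full-length form a length of 5264 bases, 704 fewer than vM21, so the authors' model of this transcript was shorter than the one drawn here.

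The remaining forms held few reads or none. ENSMUST00000162657, which is annotated for nonsense-mediated decay, had 5.09 reads in vehicle replicate 4, 11.9 in MCH replicate 2 and 0 in the other wells. ENSMUST00000159204, a retained-intron form, had 2.19 reads in MCH replicate 4 and 0 elsewhere. ENSMUST00000026048, ENSMUST00000159999 and ENSMUST00000160970 had 0 reads in all wells, which allows up to 3 reads per well.

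The split between replicates 1 and 2 and replicates 3 and 4 ran through the whole data set: after the treatment means were taken out, it was the first principal component of log2 CPM (59.8% of the variance). What the split marks is not given in the sources used here. A gene counts below as higher or lower on a side by log2 CPM in every well, and its TPM can still overlap. *Foxj1*, the master regulator of motile cilia and a marker of ependymal cells, was at 3.43, 4.15, 4.03 and 4.16 TPM in replicates 1 and 2 (vehicle, then MCH) and at 9.70, 10.6, 9.60 and 9.97 TPM in replicates 3 and 4. The 10 ependymal markers summed to 24.7 to 30.3 TPM in replicates 1 and 2 and to 53.4 to 56.8 TPM in replicates 3 and 4, and of the 7 tested, 5 were higher in replicates 3 and 4 of both treatments than in any of replicates 1 and 2, as were 16.6% of all genes tested, and 1, *Fam183b*, was lower (13% of all genes). None of these markers was at 0 in all wells, although *Sntn* reached at most 0.061 TPM. The 9 astrocyte markers, all higher on that side in log2 CPM, summed to 400 to 447 against 1162 to 1373 TPM. In TPM the sides overlapped for *Slc1a2* (127 to 183 against 146 to 170). Sums were also higher in replicates 3 and 4 for the markers of choroid plexus (52.5 to 67.2 against 125 to 155 TPM), of the oligodendrocyte lineage (35.9 to 41.8 against 93.1 to 113 TPM), of fibroblasts or vessels (16 to 25.7 against 50 to 53.8 TPM) and of microglia (4.71 to 7.33 against 9.29 to 13.7 TPM). Of the genes tested in these lists, 5 of 8, 4 of 6, 7 of 7 and 2 of 4 were higher in log2 CPM in each well of that side, and 0 were lower. In TPM the sides overlapped for some of these, such as *Col1a1* (0.237 to 1.26 against 0.478 to 0.685). The first 3 sums rested largely on 1 gene each: *Ttr* (37.6 to 49.3 against 99.3 to 126 TPM), *Olig1* (20.4 to 23.2 against 71.7 to 90.9 TPM) and *Dcn* (13.5 to 18.3 against 43.3 to 45.2 TPM). *Sox10* and *Mog*, of the oligodendrocyte list, were at 0 in all wells. Sums were lower there for the 10 excitatory neuron markers (4978 to 5280 against 4629 to 4761 TPM) and for the 5 inhibitory ones (4700 to 4996 against 2995 to 3725 TPM). All 5 inhibitory markers were lower in each well of that side, against 4 of the 10 excitatory ones. The other excitatory markers differed in mean log2 CPM by −0.3 (*Slc17a6*) to 0.26 (*Prox1*). The part of these cells in the full-length reads of *Cfap43* was not tested.

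**Figure D3:**
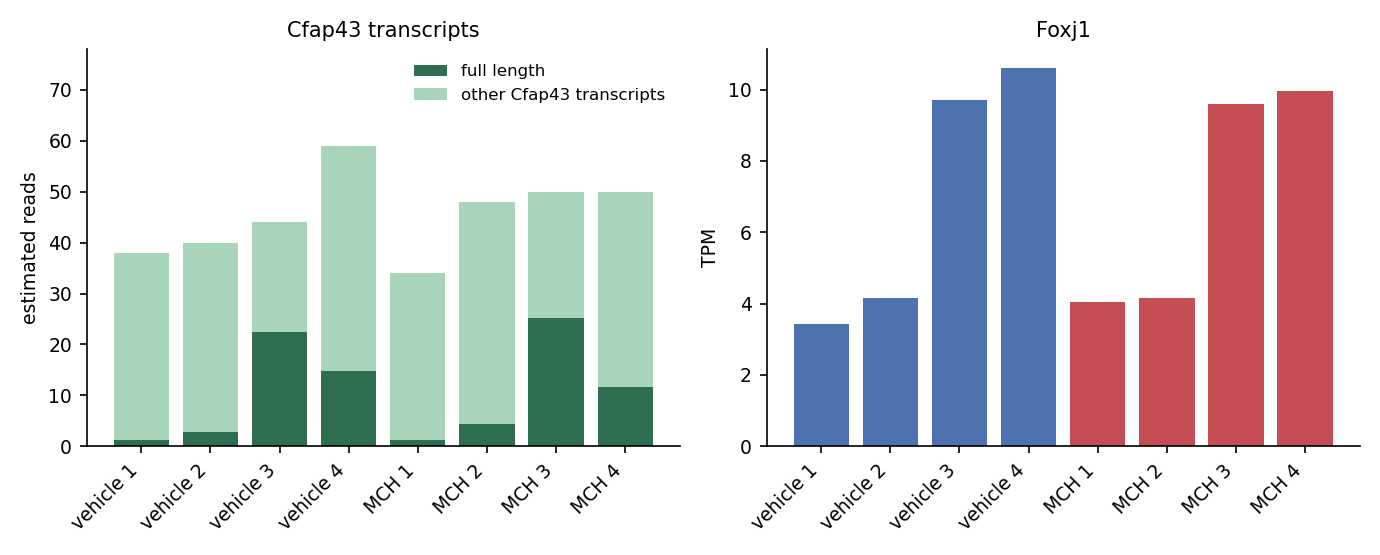
Estimated reads on full-length *Cfap43* (dark) and on the other *Cfap43* transcripts (light) in each well, left, and TPM of *Foxj1* in the same wells, right (blue, vehicle; red, MCH). Full-length reads and *Foxj1* were both low in replicates 1 and 2 and high in replicates 3 and 4 of each treatment.

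Of the 8 other genes in the list for the inner-arm I1 dynein and its tether, 7 could be tested and 0 were called by edgeR, where 0.234% of all genes tested were, so that few calls could come from a list of this size. They had a median log2 fold change of −0.11 against −0.003 over all genes tested. *Cfap44*, the partner of *Cfap43* in the tether, was at 1.60, 0.776, 1.59 and 1.90 TPM in vehicle replicates 1 to 4 and at 0.271, 1.74, 1.42 and 1.92 TPM in MCH replicates 1 to 4. Its treatments overlapped (log2 fold change −0.058, standard error 0.326). The fold change is that of its deposited row, which differed from its vM21 transcripts by up to 5.17 reads in a well. The TPM are those of the vM21 transcripts. *Dnah2*, an I1 heavy chain and the highest of the list, was at 3.23 ± 0.956 TPM with vehicle and 2.69 ± 0.488 TPM with MCH (SD, n = 4; log2 fold change −0.11, standard error 0.126). *Dnah10*, the other I1 heavy chain, stood at 0.126 ± 0.130 and 0.155 ± 0.186 TPM.

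*Wdr78*, an intermediate chain of I1, was at 2.26 ± 0.218 TPM with vehicle and 2.65 ± 0.341 TPM with MCH, and *Wdr63*, another, at 0.379 ± 0.241 and 0.352 ± 0.162 TPM (SD, n = 4). *Wdr78* had a log2 fold change of 0.15 (standard error 0.138), and *Wdr63* one of −0.36 (0.672). *Cfap57* had 0.546 ± 0.0846 and 0.586 ± 0.152 TPM. *Cfap100* and *Cfap73*, which bind each other in a complex that modifies inner-arm dyneins, were at most at 1.03 and 0.245 TPM, and *Cfap73* was too low to be tested.

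Over all 9 ciliary lists together, which leave *Cfap43* out, 119 of 146 genes could be tested and 0 were called in either direction by edgeR, by DESeq2 and by limma voom, beside 0.234% of all genes in edgeR, a share so low that 0 calls do not set the lists apart. Without adjustment 6 of the 119 had a *P* value under 0.05 in edgeR, against 1272 of the 14962 genes tested. The median log2 fold change of the 119 was 0.04, with 78 above 0 and 41 below. Values ran from −0.53 to 0.92, both in the list of other axonemal dyneins. The fit with the replicate number as a block, which called 596 genes (3.98%), called 3 of the 119: *Cfap36* (log2 fold change −0.14 without the block), *Rfx1* (0.31) and *Rfx3* (0.22). *Rfx1* and *Rfx3* are transcription factors of ciliary genes, and *Cfap36* is expressed well beyond motile cilia.

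Levels within the ciliary lists spanned from abundant genes with roles outside motile cilia to genes at the edge of detection, and *Cfap43*, at 1.40 TPM, lay between the highest and the lowest member of each motile cilium list and below the lowest of the primary cilium list. In the list for dynein arms other than I1, the light chain *Dnal1* was highest at 54.3 TPM and the heavy chain *Dnah17* lowest at 0.00892 TPM (means of 8 wells). In the list for the nexin link and rulers, *Gas8*, a subunit of the dynein regulatory complex, had 30.3 TPM and *Iqca*, another, 0.101 TPM. *Rsph9* (40.4 TPM) and *Rsph6a* (0.0447 TPM) bounded the radial spokes and central pair. For the factors that assemble dynein arms the bounds were *Dnaaf5* at 4.00 TPM and *Pih1d3*, listed at 0 in all wells. Both ends of the remaining lists also lay away from *Cfap43*. *E2f4*, also a regulator of the cell cycle (23.4 TPM), and *Gmnc*, the geminin relative that starts multiciliated fate (0.0694 TPM), bounded the regulators, and *Dzip1* (25.2 TPM) and *Fsip2* (0.00153 TPM) the genes of sperm flagellum defects. In the primary cilium list *Kif3a*, a subunit of the kinesin that carries cargo along all cilia, reached 144 TPM, and *Cep290*, a protein of the transition zone, was lowest at 2.36 TPM.

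Of the 30 primary cilium genes, all were tested, and their log2 fold changes lay between −0.12 and 0.28 with a median of 0.021. *Mchr1* itself was at 9.45, 7.73, 8.40 and 8.91 TPM in vehicle replicates 1 to 4 and at 8.47, 8.93, 8.39 and 8.50 TPM in MCH replicates 1 to 4, with overlapping treatments (log2 fold change −0.031, standard error 0.078). Part of the motile lists and the *Cfap* family was split between the replicates in the way of the full-length form. In log2 CPM, 39 of their 89 tested genes (43.8%) were higher in replicates 3 and 4 of both treatments than in any of replicates 1 and 2. This held for 16.6% of all genes tested. Another 3 (3.37%) were lower in replicates 3 and 4, against 13% of all genes, and the remaining genes did not part by replicate.

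**Figure D4:**
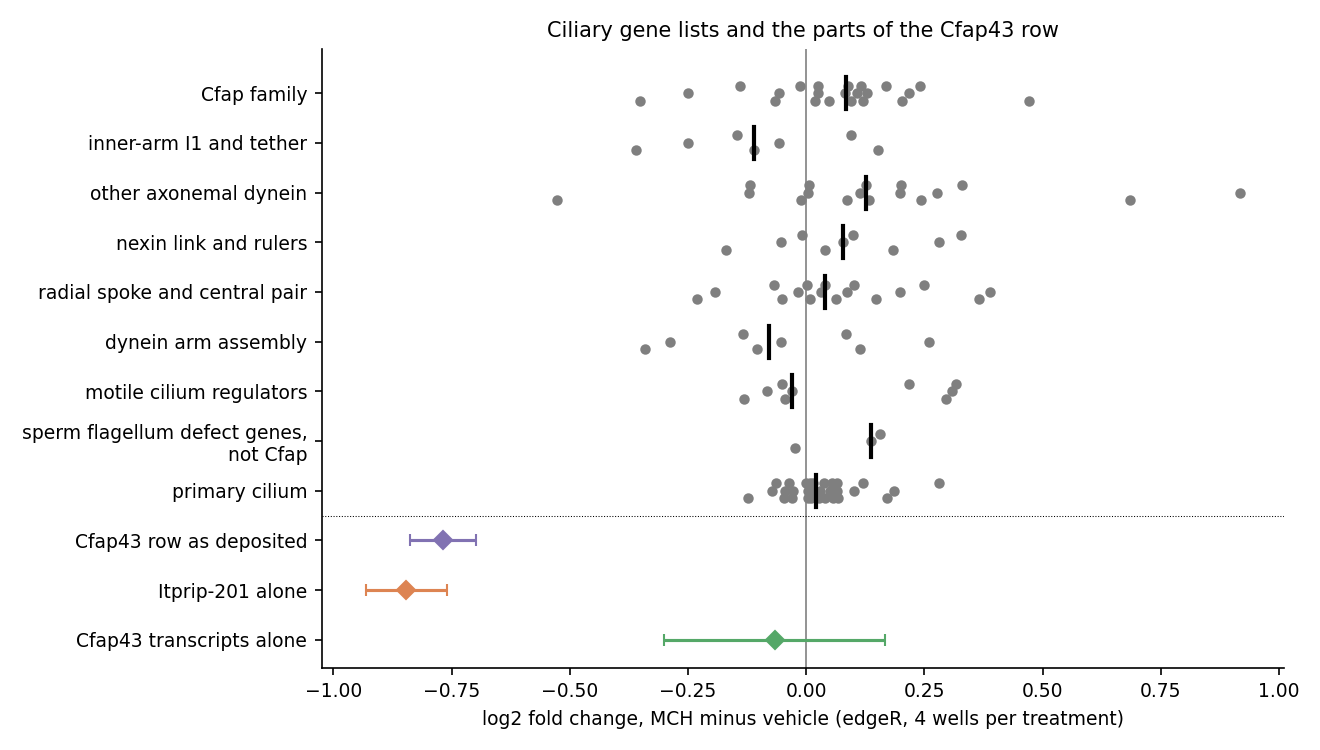
Log2 fold change, MCH minus vehicle, of each tested gene of the 9 ciliary lists (grey points, black bar at the median), above the *Cfap43* row, *Itprip-201* and the *Cfap43* transcripts with their standard errors (n = 4 wells per treatment). The row and *Itprip-201* lie at −0.77 and −0.85, below every ciliary gene tested, and the *Cfap43* transcripts at −0.067, among them.

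Counted by its own transcripts, *Cfap43* came at place 11 of the 28 *Cfap* genes with a TPM value. *Cfap36* led at 108 TPM, followed by *Cfap20* at 65.1 TPM, a protein of the inner junction of doublet microtubules, and *Cfap73* came last at 0.0757 TPM. Directly above *Cfap43* (1.40 TPM, 1.03 to 1.82 over the wells) was *Cfap61*, of the calmodulin and spoke complex, at 1.42 TPM (0.948 to 2.09), and directly below was *Cfap44* at 1.40 TPM (0.271 to 1.92). The ranges of these 3 overlapped, so their order is not set by these wells. The lowest well of *Cfap69*, the seventh in order, was at 3.35 TPM and so above every well of *Cfap43*.

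Apart from *Itprip*, described above, the 4 protein-coding genes that overlap or flank the locus were not called by edgeR, against 0.234% of all genes tested. *Sfr1*, a recombination factor and the nearest gene beyond the 3′ end, was at 95.3 to 111 TPM over the 8 wells (log2 fold change 0.025, standard error 0.047). *Gsto1* and *Gsto2*, glutathione transferases on the opposite strand inside the annotated span of *Cfap43*, were at log2 fold changes of −0.11 (with a standard error of 0.077) and −0.016 (0.387), at 72 to 90.7 TPM and 0.491 to 1.44 TPM. The microRNA genes *Mir8090* and *Gm22240* inside the span had 0 reads in libraries of poly-A RNA. *Cfap58*, the nearest gene beyond the *Itprip* end and itself a gene of the sperm flagellum, held 8 to 19 reads per well (log2 fold change 0.081, standard error 0.344).

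In order of *P* value the row came at place 3 of 14962, between *Arc* and *Fos*, genes that neuronal activity is known to induce. *Fosb* (log2 fold change −0.80, standard error 0.066) and *Arc* (−0.59, standard error 0.053) came before it. After it came *Fos* (−0.91), *Sik1* (−0.63), *Rasl11a* (−1.03), *Spry2* (−0.53) and *Erf* (−0.40). FOS and FOSB are subunits of the AP-1 transcription factor, *Arc* encodes a protein of synaptic plasticity, and SIK1, SPRY2 and ERF restrain kinase or transcription pathways. By size, the row was the 7th of the 31 genes called lower.

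The genes most like the row over the 8 wells in log2 CPM were *Phf21b* (Pearson *r* = 0.991), *Lbh* (0.990), *Fos* (0.984), *Rassf8* (0.983), *Akr1b3* (0.977), *Arc* (0.975), *Nedd9* (0.975), *Man1a* (0.972), *Clba1* (0.972) and *Gm10273* (0.971). These points share 8 libraries and the treatment on which the row was picked, and 119 of the 14961 other genes had an *r* above 0.9, so the values are a description. Of these 10 genes, 8 were called lower in edgeR without a block, as were 0.207% of all genes tested. *Akr1b3* (log2 fold change −0.21) and *Clba1* (−0.28) were called once the replicate or the batch block was added. The replicate block called 3.98% of all genes. Since the 10 genes were picked by likeness to a row chosen on this contrast, such calls follow largely from the choice. *Fos*, for one, fell from a mean of 62.7 CPM in vehicle-treated wells to 33.4 CPM after MCH, *Lbh*, a transcription cofactor, from 115 to 90.7 CPM, and *Phf21b*, a chromatin reader, from 13.6 to 8.84 CPM. *Gm10273* rested on few reads, with 0.450 CPM on average with vehicle and 0.016 CPM with MCH. With *Itprip-201* these 10 genes had an *r* of 0.968 to 0.989, and with the *Cfap43* transcripts of −0.133 to 0.107. They were picked by likeness to the row, of which *Itprip-201* held 85.1 to 93.8%, so this contrast follows largely from the choice.

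With the treatment means taken out, the highest values of *r* with the row were those of *Rhbdd1* (0.964), *Stk10* (0.962), *Cep85* (0.959), *Gm3636* (0.952) and *U2surp* (0.949). Of these genes 0 were called after MCH, where 0.234% of all genes tested were. They track the spread between wells of one treatment, such as vehicle replicate 2, which was the highest of its group in the row and in *Itprip-201*.

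**Figure D5:**
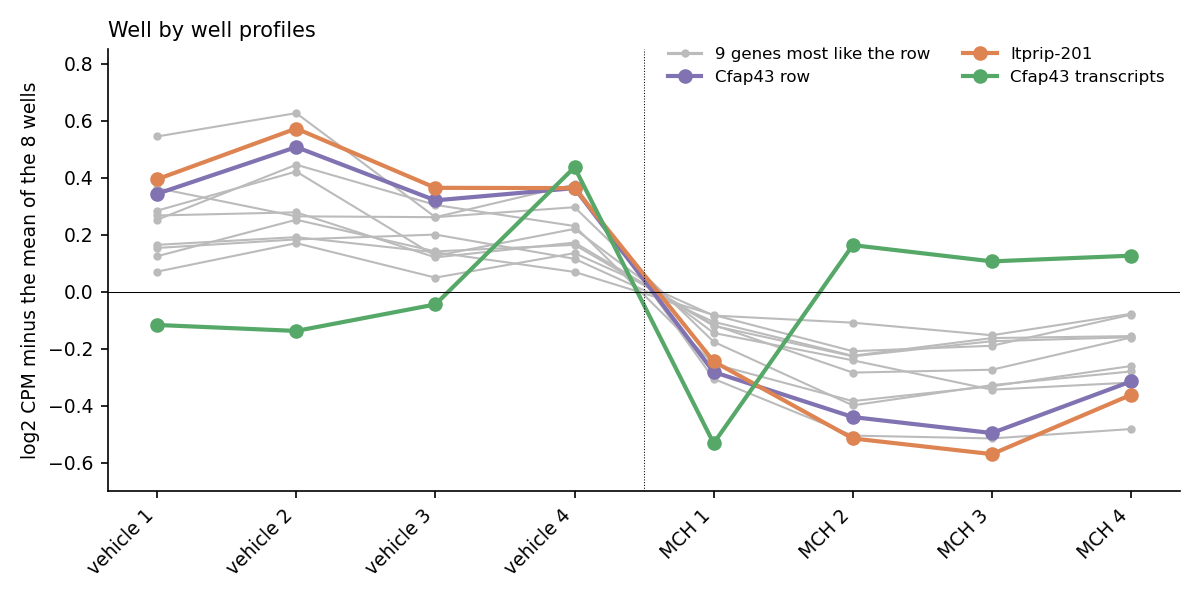
Log2 CPM minus the mean of the 8 wells for the *Cfap43* row, *Itprip-201*, the *Cfap43* transcripts and 9 of the 10 genes most like the row (grey, without *Gm10273*, which had few reads); lines join the wells of 1 gene and carry no order. The row and *Itprip-201* run together with the grey genes, which were picked on the row. The *Cfap43* transcripts do not, with 0.436 in vehicle replicate 4 and −0.532 in MCH replicate 1.

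The treatment difference was on *Itprip-201*, whose start lies 81.9 kb from that of full-length *Cfap43*. The 2 promoters are therefore printed, as far as they lie before the annotated starts nearby (RefSeq, GRCm38.p6, minus strand). For *Cfap43* this leaves aside ENSMUST00000026048, which begins in the first exon of *Itprip*. Capitals mark matches of the motifs searched.
*Itprip*, chr19:47919324-47919573: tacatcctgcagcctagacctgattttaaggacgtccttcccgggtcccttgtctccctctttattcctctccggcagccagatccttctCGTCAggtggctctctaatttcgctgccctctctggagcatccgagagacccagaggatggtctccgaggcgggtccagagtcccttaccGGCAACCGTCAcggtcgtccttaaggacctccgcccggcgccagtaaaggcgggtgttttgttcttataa
*Cfap43*, chr19:47837455-47837611: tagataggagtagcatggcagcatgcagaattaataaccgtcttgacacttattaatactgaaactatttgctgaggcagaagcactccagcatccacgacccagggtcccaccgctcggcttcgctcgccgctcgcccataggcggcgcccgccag

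The windows searched ran from 250 bases before to 50 after the RefSeq start (base 0), on both strands, and were compared with 32851 such windows of all genes. TGACG, the core of the cAMP response element, occurred at bases −160 and −64 of *Itprip* and in 20.8% of all windows, but not in the window of *Cfap43*. GTTGCC, one arm of the X-box bound by RFX factors, occurred at bases −70 and 42 of *Itprip*, the first directly before the TGACG at −64 without overlapping it, and in 12.5% of all windows. GTAAACA, a forkhead motif, occurred at base −55 of *Cfap43* and in 3.65% of all windows. That match lies beyond the stretch printed, after an annotated start of *Cfap43*. TGACGTCA (1.79% of windows), TGANTCA (7.81%), GCGTGGGCG (0.612%) and the CArG box (1.63%) occurred in neither window. A match is a match of letters, and its absence from these windows says nothing of the factor.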

How the data were processed

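Reads were quantified by the authors with salmon, run inside nf-core/rnaseq against GRCm38; which annotation they used is not given in the sources used here. The deposited gene table holds estimated counts per gene, and the deposited transcript tables hold salmon's estimated counts and TPM, which salmon scaled for length and depth. Their processing notes also name R 4.0.3 and DESeq2 1.13.0 for the authors' own comparison, which was not used here. The study's reporting summary names a different version of DESeq2. Identifiers were matched to GENCODE vM21, which named 45143 of 45706 genes and 108214 of 109617 transcripts, and for 98.99% of 45092 genes the transcripts summed in every well to within 1 read of the gene's row. Coordinates are of vM21.

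Counts were rounded and fitted in R 4.3.3 with edgeR 4.0.16 (TMM factors, filterByExpr with count minimum 10 and total minimum 15, quasi-likelihood test, Benjamini–Hochberg adjustment over 14962 genes, threshold 0.05), with treatment as the only term. Log2 CPM used a prior count of 2. DESeq2 1.42.0, limma 3.58.1, other scalings and filters, blocks and the loss of each well were alternatives. The replicate block was the replicate number. The side block was replicates 1 and 2 against replicates 3 and 4, a split seen in these data and not a recorded batch. The test was tried on simulated data. Totals ranged from 26083936 to 31844861 estimated counts per well, 3 counts being the floor for a transcript at 0.

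*Cfap43*, the gene lists and the rules were chosen with earlier results of these data known. Named were *Cfap43* and its transcripts, the I1 and tether list, listed genes that passed, the highest and lowest of each ciliary list, neighbours in the genome, in level and in order of *P*, the 10 and 5 genes most alike, and *Mchr1*; further names were added after their values were seen.

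Wells with the same replicate number deviated together from their treatment means (*r* of 0.445 to 0.545 in the 4 pairs). Other numbers on the same side did so too (0.475 to 0.521), but not numbers across sides (−0.548 to −0.438). The rule of a correlation over 0.1 in each pair was thus met by number, and equally by other numbers on the same side. These values therefore set the sides apart and cannot show that wells of the same number are pairs. The sides come from these values.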

Additional observations from a re-analysis of the deposited data

Results flagged for a closer look

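In groups of 4 wells, 7 of 26 groups looked at had a well whose gap to the others took up more of the range than Dixon's 95% limit allows, which chance gives in about 1 of 20 groups. *Itprip-201* stood at 22.0 CPM in vehicle replicate 2, against 19 to 19.4 CPM in the other vehicle-treated wells. The *Cfap43* transcripts together stood at 2.19 CPM in vehicle replicate 4, against 1.45 to 1.55 CPM, and at 1.09 CPM in MCH replicate 1, against 1.73 to 1.80 CPM in the other MCH-treated wells. The 3′ form of *Cfap43* held 21.5 reads in vehicle replicate 3, against 36.7 to 39.2. *Cfap44* was at 2.61 CPM in vehicle replicate 3 (others 1.38 to 1.56), *Dnah10* at 0.632 CPM in vehicle replicate 4 (others 0.353 to 0.399) and *Mchr1* at 10.1 CPM in MCH replicate 2 (others 9.48 to 9.58).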

How the results depend on the processing

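The log2 fold change of the *Cfap43* row was −0.80 to −0.71 over 17 other settings, the end nearest 0 with the length offset. Read from the vM21 *Cfap43* transcripts alone, a setting added after the data were seen, it was −0.067. In that split, *Itprip-201* lay between −0.91 and −0.79 and the *Cfap43* transcripts between −0.13 and 0.097 with a block or without 1 well (0.097 without vehicle replicate 4 and 0.084 without MCH replicate 1). The number of genes called, 35, was 157 in DESeq2, 596 with the replicate block, 668 with the side block and 8 with the length offset. It ranged from 4 to 29 with 1 well left out: 5, 9, 29 and 4 without vehicle replicates 1 to 4, and 26, 12, 10 and 7 without MCH replicates 1 to 4. In the other 6 settings it was 31 to 46. Of the ciliary genes 0 were called, except 3 with the replicate block and 3 with the side block. Beyond these, the blocks changed only the calls of *Akr1b3*, *Clba1* and *Ttr* among the genes named. The difference in the full-length share was −0.05 percentage points, −0.33 as a share of TPM, and −9.60 to 9.79 with 1 well left out; counting the longest transcript alone gave the same value because only 1 form is full length. The causes were not tested. Depth limits what can be said of the *Cfap43* transcripts, at 34 to 59 reads per well.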
